A study of Mus musculus with 8 samples.

Results

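The transcripts of 35 complement system genes were examined in the livers of female mice that received dihydrotestosterone (DHT), a potent androgen, while on a western diet (WD). The genes were chosen by name: they are the rows of the deposited expression table whose Ensembl identifiers map to a list of 35 mouse complement symbols, in which Hc is mouse complement C5. All 35 had a row among the 14317 mouse genes of the table. RNA from the livers of 4 control females with an empty vehicle pellet (Con-Veh) and 4 control females with a 10 mm DHT pellet (Con-DHT) was sequenced, with 1 library per mouse. All 8 mice were on WD, and the labels give 8.5 weeks of vehicle or DHT. Per the methods, silastic pellets were implanted at 7 weeks of age and exchanged every 4 weeks. The labels call the genotype of all 8 mice WT. Total RNA of the tissue was used, so that hepatocytes and every other cell of the liver contributed, and fewer cells of a type and less RNA per cell cannot be told apart.

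Complement is a cascade of plasma proteins that tags and lyses microbes and clears dead cells. The classical pathway starts with C1q and its proteases C1r and C1s, the lectin pathway with mannose-binding lectins, ficolins and collectins and their MASP proteases, and the alternative pathway with factors B and D and properdin. All of them cleave C3, after which C5 to C9 assemble the membrane attack complex, and a set of regulators holds each step in check. Hepatocytes make most of the plasma components, C1q and properdin come mainly from macrophages and other myeloid cells, and several components are known to differ between male and female mice.

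The sequences upstream of 5 genes are shown for reference, and no expression result below rests on them. C6 and C8b were the members higher in Con-DHT. C8a lies beside C8b on chromosome 4 with no other protein-coding gene between them. C1qb and C1qc are neighbours on the same chromosome and were both lower. Each run is the 250 bases before the annotated start, on the strand of the gene and 5′ to 3′, from RefSeq in build GRCm38.p6, which is not the build the labels name (GRCm39). The windows are chr15:4726960-4727209 on the + strand for C6, chr4:104766067-104766316 on the + strand for C8b, chr4:104876399-104876648 on the - strand for C8a, chr4:136886201-136886450 on the - strand for C1qb and chr4:136892915-136893164 on the - strand for C1qc. Capitals mark matches to either of 2 motifs, searched on both strands.
C6: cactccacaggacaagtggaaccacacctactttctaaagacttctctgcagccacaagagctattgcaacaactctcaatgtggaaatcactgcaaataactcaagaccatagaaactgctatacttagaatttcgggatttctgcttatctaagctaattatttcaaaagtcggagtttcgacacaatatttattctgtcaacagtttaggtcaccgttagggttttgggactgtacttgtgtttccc
C8b: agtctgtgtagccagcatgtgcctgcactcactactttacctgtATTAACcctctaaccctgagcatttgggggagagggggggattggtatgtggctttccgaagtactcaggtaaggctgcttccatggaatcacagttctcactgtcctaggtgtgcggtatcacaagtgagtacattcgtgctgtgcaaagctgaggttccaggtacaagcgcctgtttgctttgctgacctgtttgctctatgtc
C8a: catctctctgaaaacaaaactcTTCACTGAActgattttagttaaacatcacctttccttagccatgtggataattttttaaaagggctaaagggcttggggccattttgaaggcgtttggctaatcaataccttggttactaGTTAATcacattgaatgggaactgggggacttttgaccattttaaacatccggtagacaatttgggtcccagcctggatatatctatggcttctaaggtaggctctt
C1qb: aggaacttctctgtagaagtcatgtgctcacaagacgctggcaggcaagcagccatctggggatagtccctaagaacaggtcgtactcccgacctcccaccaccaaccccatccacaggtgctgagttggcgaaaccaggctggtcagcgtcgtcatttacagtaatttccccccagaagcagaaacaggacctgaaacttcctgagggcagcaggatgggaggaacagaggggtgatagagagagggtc
C1qc: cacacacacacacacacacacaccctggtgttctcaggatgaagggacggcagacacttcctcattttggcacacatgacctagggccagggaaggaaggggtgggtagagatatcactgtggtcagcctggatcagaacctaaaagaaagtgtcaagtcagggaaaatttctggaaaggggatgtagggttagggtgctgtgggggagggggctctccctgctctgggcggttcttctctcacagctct

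The motifs were the STAT consensus TTCNNNGAA, which 7.02% of the 32851 RefSeq promoters of this length hold, and the HNF1 half-site GTTAAT (6.43%). HNF1 is a hepatocyte transcription factor. A promoter entry was found for 25 of the 35 members. The capitals are the HNF1 half-site in C8b, and both the STAT consensus and the HNF1 half-site in C8a. Among the 25 members, 3 held the STAT consensus (C8a, Colec11 and Masp2) and 7 the HNF1 core (C1ra, C4bp, C8a, C8b, Cfp, Hc and Vtn). The C6, C1qb and C1qc windows matched neither, which says only that these letters are not in these windows.

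Depth was similar across the libraries, with 13123962 to 17815944 reads on mouse genes. The first principal component, with 45.4% of the variance over all genes, placed all Con-Veh livers on one side and all Con-DHT livers on the other. Liver identity was evident in every library: Alb, the plasma albumin gene, ranged from 539803 to 1275381 normalized read counts, and 7 hepatocyte markers summed to 860712 to 1649383 in Con-Veh and 909651 to 1068415 in Con-DHT. Values below are the deposited normalized read counts, listed in the order of the replicate numbers, and every fold change comes from log2(value + 1) in limma with Benjamini-Hochberg adjustment over all 14312 genes tested.

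Of the 35 members, 8 passed an adjusted p of 0.05, 2 of them higher (C6 and C8b) and 6 lower (C1qa, C1qb, C1qc, Mbl2, Cfb and Cfp) in Con-DHT. An unadjusted p of at most 0.05 was reached by 15 members, against 23.2% of all tested genes. The 8 are 22.9% of the members, and 7.21% of all tested genes passed (4.6% higher and 2.61% lower). The groups did not overlap in 9 members, 2 higher and 7 lower, against 15.1% of all tested genes (8.49% higher and 6.62% lower). The median log2 fold change of the members was -0.18, compared with -0.0081 over all tested genes, and 26 members lay below 0, but after scaling by the ERCC spike-in RNAs the member median was 0.02 and 10 of the 35 signs flipped. That scaling moved the median of all genes to 0.19, left C6 and C8b called, added Cfd and lost the other 6, whose signs it did not change, and 4.45% of all tested genes passed under it (3.93% higher and 0.524% lower). Spike-ins were 1.68% to 3.61% of reads in Con-Veh and 2.22% to 2.75% in Con-DHT, and what this spread adds to that fit was not tested. An equal total without the Mup genes, abundant sex-dependent urinary protein genes, lost C1qc alone, with 9.01% of all tested genes passing (7.56% higher and 1.45% lower). edgeR on the recovered reads called the same 8 members (7.15% of all tested genes passed), and DESeq2 called 12, with C3, Cfi, Serping1 and Vtn added, where 11% of all tested genes passed.

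**Figure D1:**
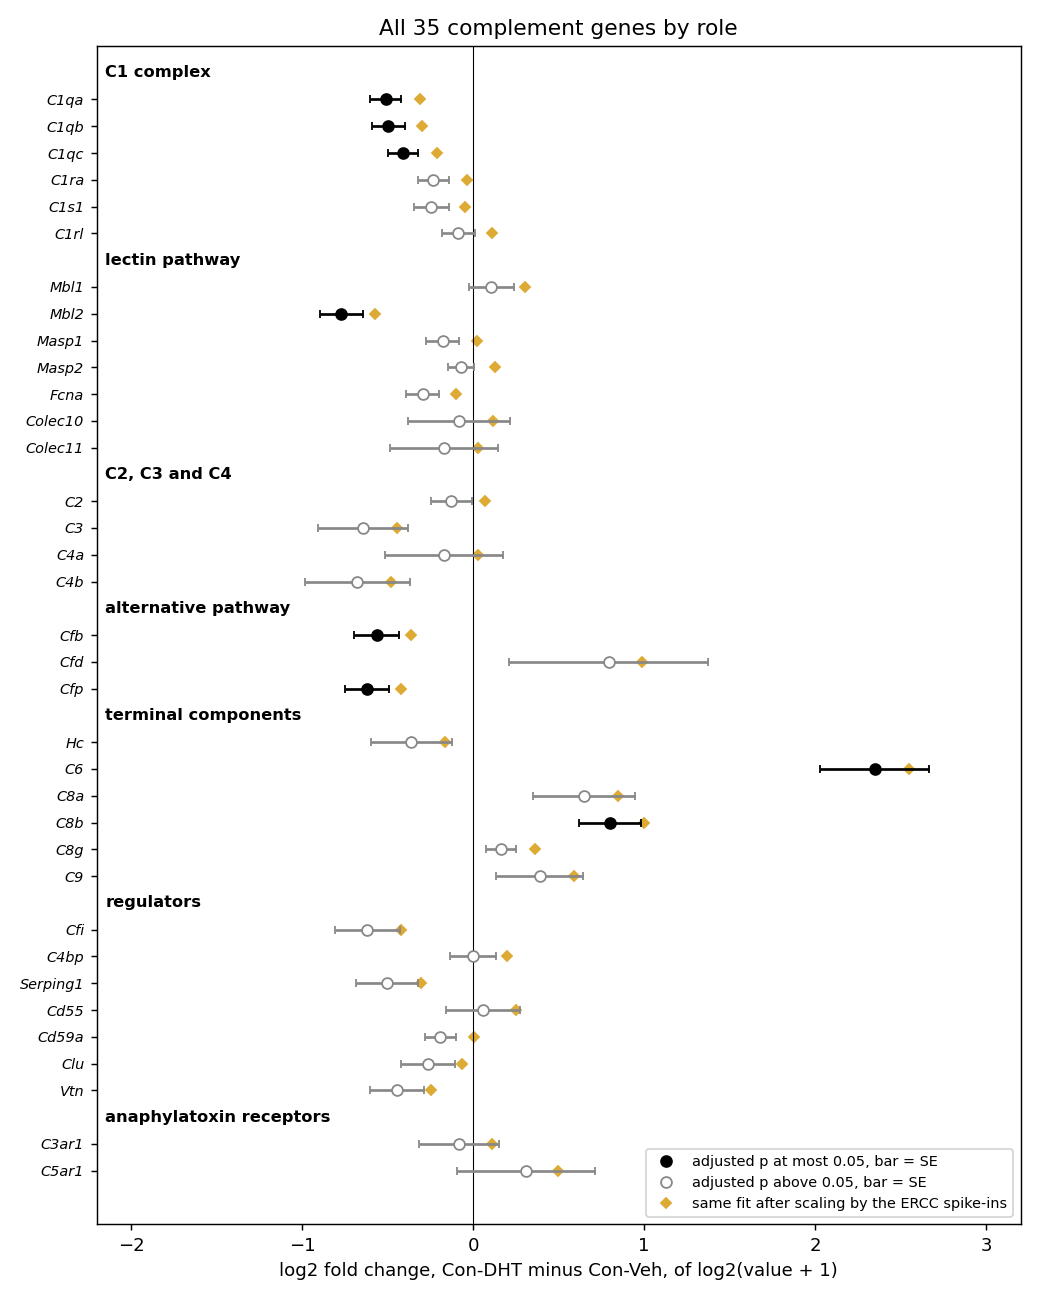
Log2 fold change of each of the 35 complement genes, Con-DHT minus Con-Veh on the log2(value + 1) scale, grouped by role; circles are the limma estimates with their SE (filled where the adjusted p is at most 0.05) and diamonds the same fit after scaling by the ERCC spike-ins. The 8 filled circles are C6 and C8b to the right of 0 and C1qa, C1qb, C1qc, Mbl2, Cfb and Cfp to the left, and the diamonds lie to the right of the circles.

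Per kilobase of merged exons, the mean levels in Con-Veh spanned from 42553 for C3, the central component, to 5.80 for C5ar1, the receptor for C5a. C3 was followed by Vtn at 22829, Clu at 8989 and C4b at 7612, and the first 3 of these also led in Con-DHT, with C3 at 26732, Vtn at 16575 and Clu at 7401. C6 went in this order from rank 30 of 35 at 91.9 in Con-Veh to rank 24 at 514 in Con-DHT. Cfd went from rank 23 to rank 14, with values that rested on 2 of the 4 Con-DHT livers. The receptors C3ar1 and C5ar1 and the membrane regulator Cd55 were at the bottom in both groups.

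C6, the component that joins C5b and C7 in the membrane attack complex, was the member with the largest difference. Its normalized read counts were 300.1, 418, 259.5 and 329.9 in the Con-Veh livers and 2084, 1205, 940.0 and 3079 in the Con-DHT livers. The lowest Con-DHT liver was above the highest Con-Veh liver, and within Con-DHT the livers spread much more widely than within Con-Veh. The means were 327 ± 67.2 and 1827 ± 967 (SD, n = 4 each), a ratio of 5.59, with a log2 fold change of 2.35 ± 0.32 (SE, limma, adjusted p = 0.0023). C6 was called in all 8 fits that left out 1 library, with log2 fold changes from 2.04 to 2.61, and in all 13 other settings.

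C8b, the chain of C8 that binds the C5b-7 complex, was the other member that passed and was higher. Its counts were 3263, 3237, 2009.5 and 1925 in Con-Veh and 4841, 4134, 3913 and 4793 in Con-DHT. The groups did not overlap, and Con-Veh 1 and 2 were closer to the Con-DHT livers than Con-Veh 3 and 4 were. The log2 fold change was 0.80 ± 0.18 (SE, limma, adjusted p = 0.026). The call was lost without Con-Veh 3 (adjusted p = 0.060), Con-Veh 4 (0.064), Con-DHT 1 (0.070), Con-DHT 2 (0.055) or Con-DHT 4 (0.064), with limma log2 fold changes between 0.67 and 0.92 over the 8 such fits.

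C8a, whose product pairs with that of C8b and enters the target membrane, was read in Con-Veh at 7105, 7516, 3417 and 2770.3 and in Con-DHT at 8905, 6385, 7715 and 6934. Con-Veh 1 and 2 were within the Con-DHT range, whereas Con-Veh 3 and 4 were far below it. Its log2 fold change of 0.65 ± 0.30 did not pass (limma, adjusted p = 0.23). C9, which forms the pore, had the same arrangement, with 2952, 3308, 1288 and 1862 in Con-Veh, 3388, 2604, 2821 and 2763 in Con-DHT (log2 fold change 0.39, limma, adjusted p = 0.40). Without Con-Veh 1 and 2, C8a and C9 had log2 fold changes of 1.27 and 0.89 (limma, adjusted p = 0.0037 and 0.020). Without Con-Veh 3 and 4 they were 0.02 and -0.12 (limma, adjusted p = 0.95 and 0.65). Both alternatives were picked from these same values, which set their outcome, so that no p of these fits is independent evidence.

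C8g, the small lipocalin-like chain of C8, ranged from 2539 to 3007 in Con-Veh and from 2695 to 3336 in Con-DHT (log2 fold change 0.16, limma, adjusted p = 0.30). Hc, which encodes C5, was the only terminal component with a negative estimate. Its values were 20212, 20190.1, 10449.9 and 10624 in Con-Veh and 11449, 10179.5, 14403 and 9931 in Con-DHT (log2 fold change -0.36, limma, adjusted p = 0.41). Again Con-Veh 1 and 2 were the high livers, and without Con-Veh 1 and 2 the estimate was 0.11. In the terminal group, then, 2 of 6 members passed, both higher, where 4.6% of all tested genes passed in that direction. The estimates of 5 of the 6 were above 0, and the signs of C9 and Hc depended on which pair of Con-Veh livers was kept.

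**Figure D2:**
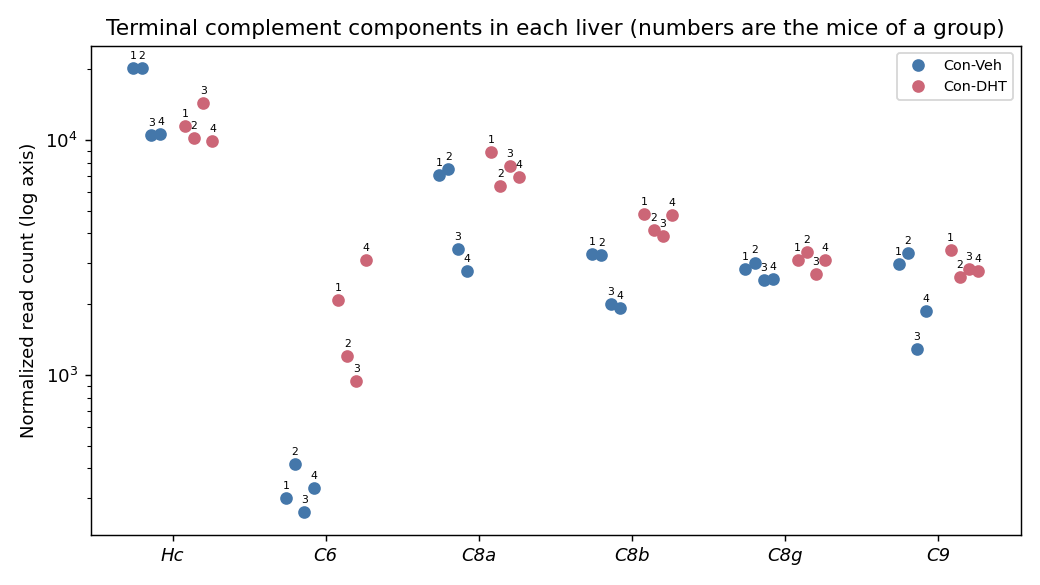
Normalized read counts (log axis) of the 6 terminal complement components in each liver, with the replicate number of the mouse above each point; blue is Con-Veh and red Con-DHT. The 4 Con-DHT livers lie above all Con-Veh livers for C6 and C8b, while for Hc, C8a and C9 Con-Veh 1 and 2 lie above Con-Veh 3 and 4.

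In the classical pathway, the 3 chains of C1q, the recognition molecule that binds antibody complexes and dying cells, fell together. C1qa was 1069, 1153, 990.3 and 974 in Con-Veh and 804, 627, 761 and 748 in Con-DHT. For C1qb the values were 846, 889.8, 802 and 762 in Con-Veh and 677, 507, 581 and 584 in Con-DHT. For C1qc they were 905, 954, 827 and 874 in Con-Veh and 727, 584, 667 and 705 in Con-DHT. In each of the 3 genes the highest Con-DHT liver was Con-DHT 1 and stayed under the lowest Con-Veh liver. The log2 fold changes were -0.51 ± 0.09 for C1qa, -0.49 ± 0.10 for C1qb and -0.41 ± 0.09 for C1qc (SE, limma, adjusted p = 0.0098, 0.013 and 0.019). C1qa and C1qb were called in all 8 leave-one-out fits, and C1qc was lost without Con-Veh 2 (limma, adjusted p = 0.058). These 3 genes sit next to each other on chromosome 4, in the order C1qb, C1qc, C1qa, and are normally expressed in the same cells.

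No protease of C1 passed in limma. C1s1, which cleaves C4 and C2, was 7765, 8099, 7606 and 7966 in Con-Veh and 7266, 6624, 7392 and 5433 in Con-DHT. The groups did not overlap, yet its log2 fold change of -0.24 ± 0.10 did not pass after adjustment (limma, adjusted p = 0.18). C1ra, which activates C1s, had a log2 fold change of -0.23 (limma, adjusted p = 0.15), and C1rl, a related protease, of -0.09 (adjusted p = 0.65), the latter positive under ERCC scaling. Windows of 150 bases, the read length, that recur in another gene's exons made up 26.3% of C1ra (shared with C1rb) and 13.4% of C1s1 (shared with C1s2 and Gm16567). How far these windows affect the values was not tested.

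Markers of Kupffer cells and macrophages moved with the C1q genes. Of 8 such markers, 4 passed, all lower (Clec4f, Vsig4, Cd5l and Cd68), where 2.61% of all tested genes passed in that direction. All 8 estimates were below 0. None of these 4 passed under ERCC scaling (log2 fold changes -0.21, -0.37, -0.66 and -0.42, limma, adjusted p = 0.93, 0.87, 0.31 and 0.84). The groups overlapped for Clec4f, which was called in 2 of 8 leave-one-out fits. The summed counts of the 8 markers were 6513 to 8043 in Con-Veh and 4395 to 6014 in Con-DHT. The C1q sum divided by this marker sum was 0.372 ± 0.024 in Con-Veh and 0.404 ± 0.035 in Con-DHT (SD, n = 4), a difference that an exact two-sided permutation test did not separate (p = 0.23, where 0.029 is the smallest p possible with 70 arrangements). Sinusoidal endothelial markers were lower as well. Of these, 2 of 6 passed, both lower (Stab2 and Lyve1, limma, adjusted p = 0.018 and 0.039), against the same 2.61% of all tested genes. The estimates of 5 of the 6 were below 0, and the sums of 3679 to 4131 in Con-Veh and 2927 to 3439 in Con-DHT did not overlap. The part of either cell type in the C1q values was not tested.

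Cfp, the gene for properdin, which stabilises the alternative pathway convertase and is made mainly by myeloid cells, was 658, 657, 561 and 622 in Con-Veh and 499, 317, 392 and 435 in Con-DHT. Every Con-DHT liver was below every Con-Veh liver. The log2 fold change was -0.62 ± 0.13 (SE, limma, adjusted p = 0.018), and the call was lost without Con-Veh 2 (adjusted p = 0.054). The macrophage and sinusoidal endothelial marker sums were also lower in these livers. Of 7 neutrophil markers only 2 had a value, and neither passed. They summed to 47.3 to 69.3 in Con-Veh and 49.0 to 67.4 in Con-DHT. The part of any of these cell types in the Cfp values was not tested.

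Cfb, the gene for factor B, the catalytic subunit of that convertase, was 3372, 3311, 2439.8 and 2274 in Con-Veh and 1799, 1851, 2058 and 1890.4 in Con-DHT. The groups did not overlap, and the Con-DHT livers were close together (SD 112) where the Con-Veh livers were not (SD 573). Its log2 fold change of -0.56 ± 0.13 passed (limma, adjusted p = 0.028) but was lost without Con-Veh 1 (0.059), Con-Veh 2 (0.074), Con-DHT 1 (0.074), Con-DHT 2 (0.072) or Con-DHT 4 (0.061). Of the Cfb windows, 80.7% recur in the exons of the overlapping locus Gm20547, as do 48.3% of those of the adjacent C2, and how such reads were assigned is not given in the sources used here.

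Cfd encodes factor D, or adipsin, the protease that cleaves factor B and is made above all by adipocytes. Its values were 483, 502, 336 and 472 in Con-Veh and 324, 307, 1713 and 2033 in Con-DHT. Con-DHT 1 and 2 were below every Con-Veh liver and Con-DHT 3 and 4 far above them. The log2 fold change of 0.79 ± 0.58 did not pass (limma, adjusted p = 0.46). Under ERCC scaling Cfd did pass (log2 fold change 0.99, limma, adjusted p = 0.023), though only Con-DHT 3 and 4 were high in the deposited values. Without Con-DHT 3 and 4, an alternative chosen after the values were seen, the log2 fold change of the deposited values was -0.49 (limma, adjusted p = 0.15). The summed adipocyte markers were 2474 in Con-DHT 3 and 3702 in Con-DHT 4, and 1253 to 1826 in the other livers, and their part in the Cfd values was not tested.

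**Figure D3:**
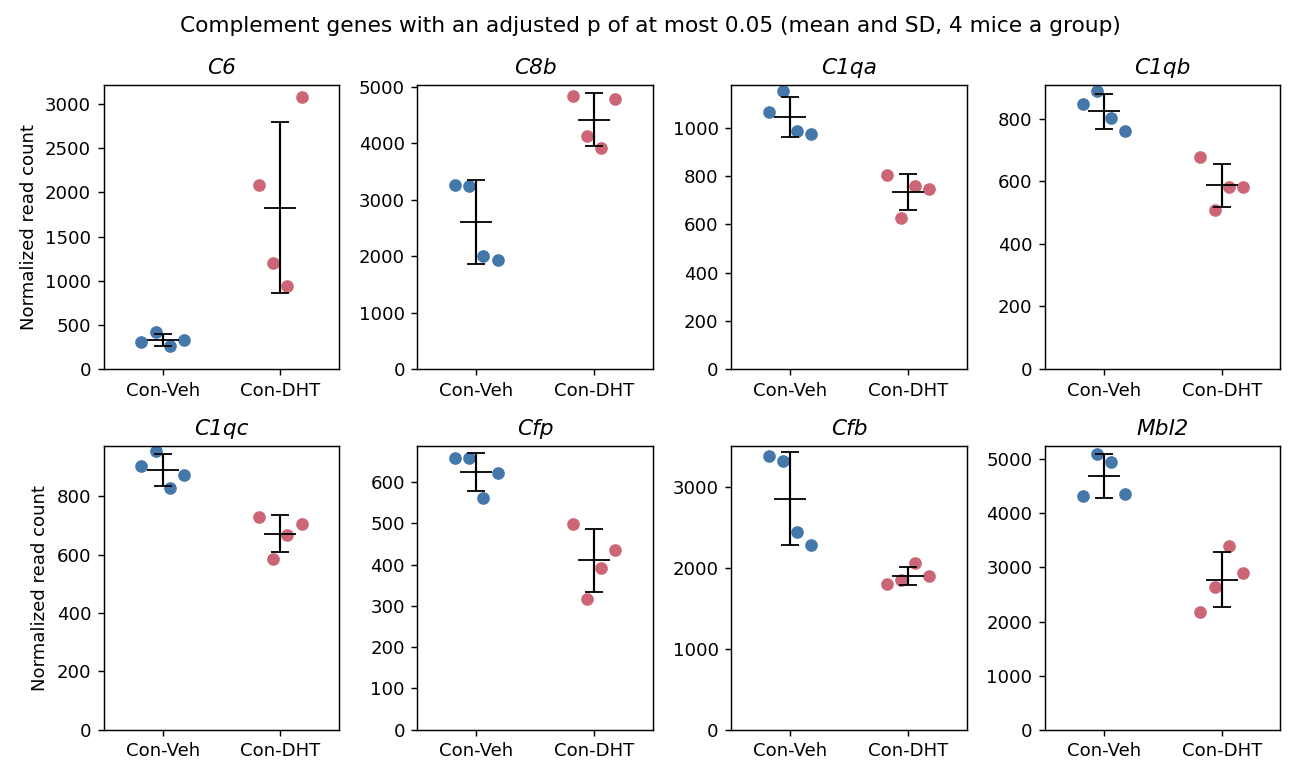
Normalized read counts (linear axes from 0) of the 8 complement genes that passed an adjusted p of 0.05, 1 point per liver, with the mean and SD of 4 mice. In all 8 genes the 2 groups do not overlap; C6 and C8b are higher in Con-DHT, and C1qa, C1qb, C1qc, Cfp, Cfb and Mbl2 are lower.

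In the lectin pathway, 1 of 7 members passed, and it was lower, where 2.61% of all tested genes passed in that direction. Mbl2, the gene for mannose-binding lectin C, which recognises microbial sugars, was 4311, 5104, 4957 and 4364 in Con-Veh and 2173, 2629, 3399.6 and 2894 in Con-DHT. The 2 groups were well apart, and Con-DHT 1 had the lowest level. The log2 fold change was -0.77 ± 0.13 (SE, limma, adjusted p = 0.0061), and Mbl2 was called in all 8 leave-one-out fits, from -0.87 to -0.66. Mbl2 and C6 were also the only members called in every fit that left out a pair of libraries. Those fits were chosen after the values were seen, so that the calls in them are not an independent check of either gene. For Mbl2 the limma adjusted p was 0.044 without Con-Veh 1 and 2 and 0.048 without Con-Veh 3 and 4. Under ERCC scaling Mbl2 did not pass (log2 fold change -0.57, limma, adjusted p = 0.50).

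Mbl1, the gene for the other mannose-binding lectin of the mouse, was 2109.6, 2394, 1586 and 1611 in Con-Veh and 2077, 1899, 1934 and 2272 in Con-DHT. Its groups overlapped, with a log2 fold change of 0.11 ± 0.13 (limma, adjusted p = 0.69). The difference between the 2 lectin genes in their response was not tested. The MASP proteases and the ficolin did not pass either: Masp1 had a log2 fold change of -0.18 (adjusted p = 0.30), Masp2 of -0.07 (0.63) and Fcna, ficolin A, of -0.30 (0.095) in limma. Fcna was called without Con-DHT 1 (adjusted p = 0.032), and Masp2 shares 54.8% of its windows with its neighbour Tardbp.

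Colec10 and Colec11, the collectins that form mixed complexes with MASPs, varied widely among the Con-Veh livers. Colec10 was 241, 151, 452 and 346 in Con-Veh and 243, 354, 241 and 217 in Con-DHT, and Colec11 was 207, 182, 526 and 464 in Con-Veh and 273, 335, 257 and 245 in Con-DHT. For both genes Con-Veh 3 and 4 were above every other Con-Veh liver and Con-Veh 2 was the lowest of all 8. Their limma log2 fold changes of -0.08 and -0.17 had adjusted p of 0.90 and 0.80. The summed stellate cell markers followed a like order in Con-Veh, at 1526, 1343, 3886 and 2559, with 1967 to 2235 in Con-DHT, and their part was not tested.

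**Figure D4:**
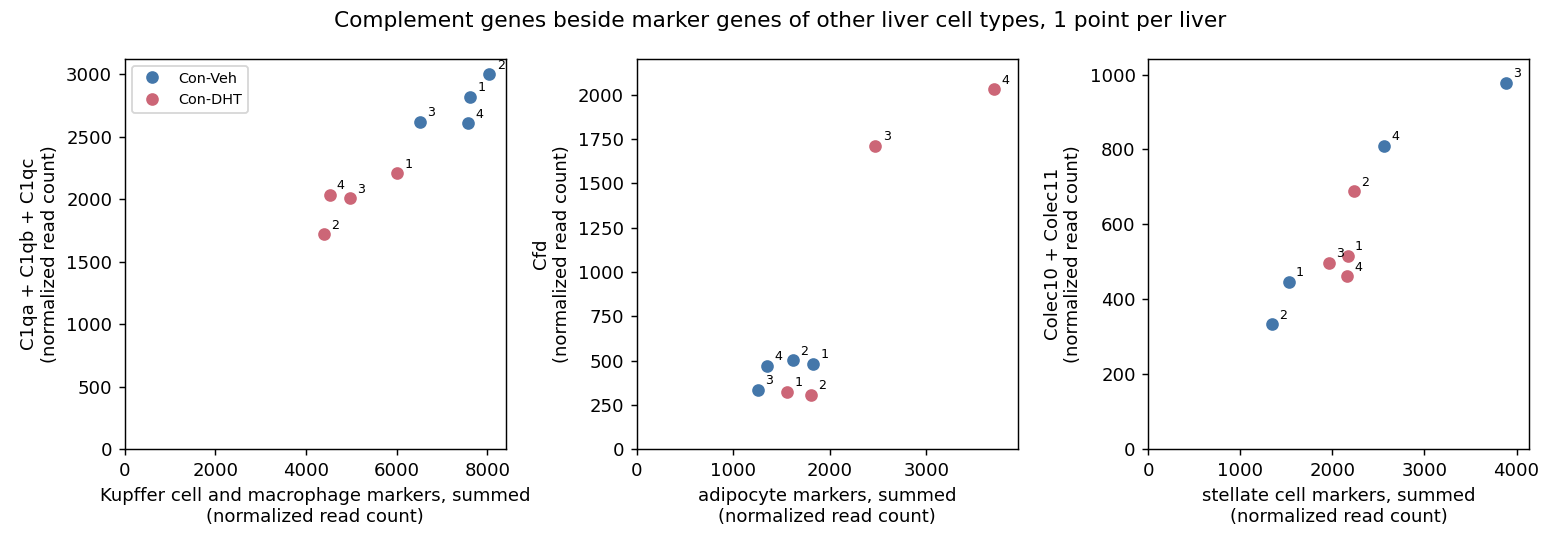
Complement genes (y axis) against summed marker genes of another liver cell type (x axis), both in normalized read counts, 1 point per liver with its replicate number. The C1q sum and the Kupffer cell and macrophage markers are both lower in Con-DHT, Cfd and the adipocyte markers are both highest in Con-DHT 3 and 4, and the sum of Colec10 and Colec11 and that of the stellate cell markers are both highest in Con-Veh 3 and 4.

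C3, on which the pathways converge, had the largest counts of any member, 264592, 281985, 170765 and 158064 in Con-Veh and 121804, 123016, 181357 and 123751 in Con-DHT. Con-DHT 3 lay inside the Con-Veh range, and the other Con-DHT livers were below it. The log2 fold change of -0.65 ± 0.26 did not pass in limma (adjusted p = 0.17) or edgeR (0.10), and passed in DESeq2 (0.018). C4b, the gene for C4, from which the classical and lectin convertases are built, was 56004, 63401, 25969.9 and 28035 in Con-Veh and 24521, 25917, 34319 and 18119.9 in Con-DHT. Con-Veh 1 and 2 stood apart from all other livers, and the log2 fold change was -0.68 ± 0.31 (limma, adjusted p = 0.22). Without Con-Veh 3 and 4 it was -1.25 and passed (limma, adjusted p = 0.031), and without Con-Veh 1 and 2 it was -0.11 (0.85). Both alternatives were chosen after the values were seen, so that neither p is independent evidence of a difference.

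C4a, known as sex-limited protein in the mouse, is a close copy of C4b, and 8.27% of its windows recur there. Its values were 208, 192, 64.9 and 107 in Con-Veh and 156, 128, 85.7 and 101 in Con-DHT. The groups overlapped over nearly their whole range, with a log2 fold change of -0.17 (limma, adjusted p = 0.82). As a share of C4a plus C4b it made up 0.325% ± 0.061 in Con-Veh and 0.482% ± 0.165 in Con-DHT (SD, n = 4), which an exact two-sided permutation test did not separate (p = 0.17). C2, which gives those convertases their protease, was 908, 1270.1, 905 and 903 in Con-Veh and 914, 937, 977 and 792 in Con-DHT (log2 fold change -0.13, limma, adjusted p = 0.58).

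Among the 7 regulators none passed in limma, where 7.21% of all tested genes passed. An unadjusted p of at most 0.05 was reached by 3, against 23.2% of all tested genes. In DESeq2 3 passed, against 11% of all tested genes. Cfi, the protease that degrades C3b and C4b, was 15649.6, 12942, 8477 and 9219 in Con-Veh and 7074, 6723, 9034 and 6643 in Con-DHT. Serping1, the C1 inhibitor, was 19021, 20039.5, 11671 and 12835 in Con-Veh and 11094, 10945, 12644 and 9252 in Con-DHT. Vtn, or vitronectin, which blocks insertion of the terminal complex, was 55855, 52339, 38954 and 38226 in Con-Veh and 32591, 31606, 38745 and 31650.3 in Con-DHT. In each gene the highest Con-DHT liver was Con-DHT 3 and overlapped Con-Veh 3 or 4. The log2 fold changes were -0.62, -0.50 and -0.45 (limma, adjusted p = 0.081, 0.13 and 0.12, and DESeq2, adjusted p = 0.012, 0.038 and 0.020). Cfi passed in limma without Con-Veh 3 (adjusted p = 0.045).

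Of the remaining regulators, C4bp, a cofactor of factor I, was 5089 to 8107 in Con-Veh and 5980 to 6733 in Con-DHT, with means of 6582 ± 1374 and 6476 ± 348 (limma, adjusted p = 0.998). Clu, or clusterin, a plasma inhibitor of the terminal complex, had a log2 fold change of -0.26 (adjusted p = 0.36) and Cd59a, its membrane-bound counterpart, of -0.19 (0.23) in limma. Cd55, which speeds the decay of convertases, was at 53.9 to 84.9 in Con-Veh and 60.8 to 97.7 in Con-DHT. The anaphylatoxin receptors, found on myeloid cells, were low, with C3ar1 at 47.3 ± 6.99 in Con-Veh and 45.8 ± 13.7 in Con-DHT and C5ar1 at 14.9 ± 6.69 and 18.7 ± 7.63 (SD, n = 4). For Cd55, C3ar1 and C5ar1 the limma adjusted p was 0.91, 0.87 and 0.70, and 9 to 101 reads per library stood behind these values, which limits what could be detected.

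A split within Con-Veh ran through many members. In 23 of the 35, Con-Veh 1 and 2 were both above Con-Veh 3 and 4, an order that 18.9% of all tested genes had, and in 3 (Masp1, Colec10 and Colec11) both were below, as in 17.7% of all tested genes. The labels give nothing that separates these livers. Leaving out Con-Veh 1 and 2 gave 6 called members, with Colec11, C8a and C9 gained and C1qa, C1qb, C1qc, Cfb and Cfp lost, and 509 of 14230 tested genes were called in that fit. Leaving out Con-Veh 3 and 4 gave 10, with C4b, Hc, Cfi, Serping1 and Vtn gained and C1qc, Cfp and C8b lost, and 517 of 14224 genes were called. Without Con-DHT 3 and 4, the livers with the highest Cfd, Mbl2 and C6 were the 2 members called, and 474 of 14148 genes were called. These 3 alternatives were chosen after the values were seen, so that calls gained or lost in them are not independent evidence.

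**Figure D5:**
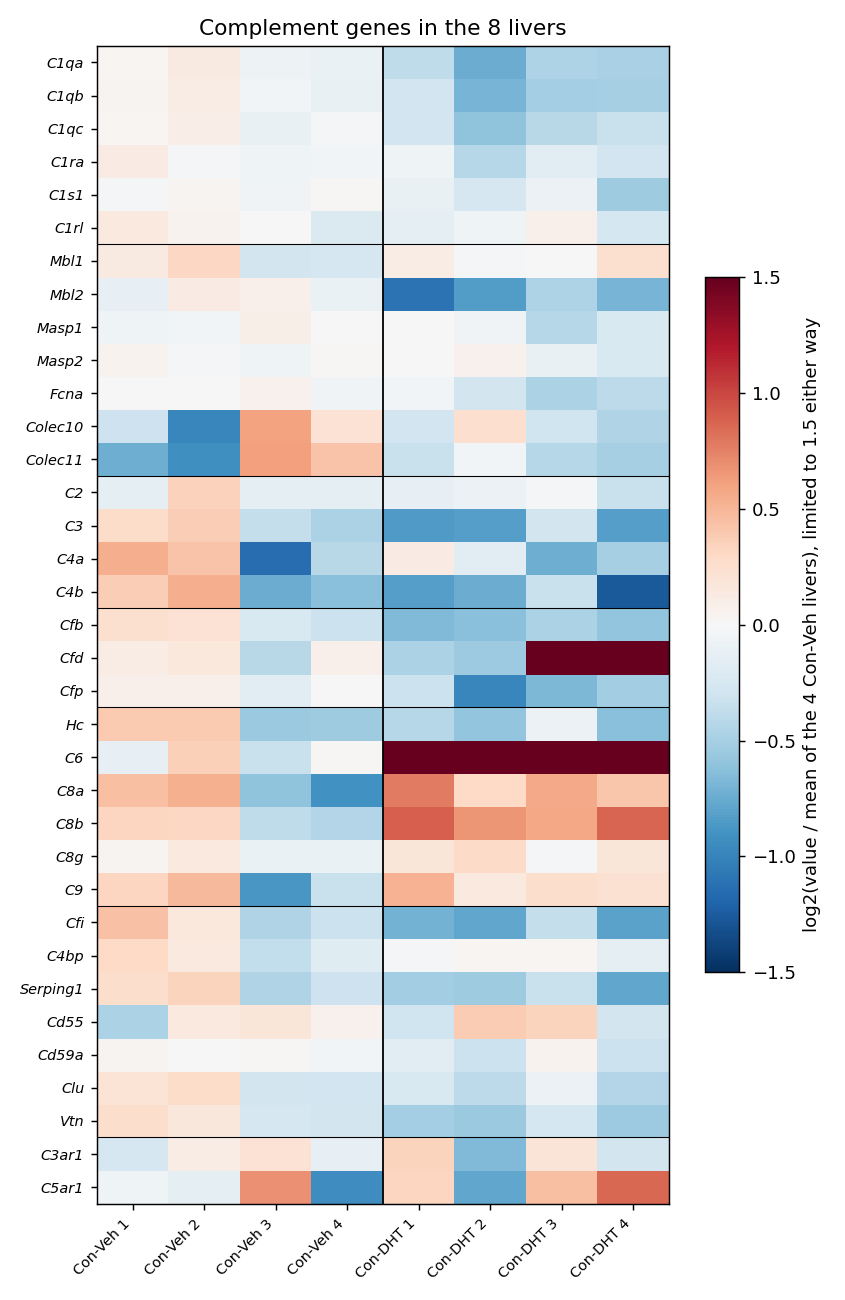
Each complement gene (rows, by role) in each of the 8 livers (columns), as log2 of its value over the mean of the 4 Con-Veh livers, with colours limited to 1.5 either way. C6 is high in all 4 Con-DHT livers, C1qa, C1qb, C1qc and Mbl2 are low there, and Con-Veh 1 and 2 differ from Con-Veh 3 and 4 in rows such as C4b, Hc, C8a and C9.

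A further list of complement genes and receptors held 29 symbols, of which 23 had a value here and 3 passed, 1 higher and 2 lower (7.21% of all tested genes passed, 4.6% higher and 2.61% lower). Susd4, a membrane-anchored complement inhibitor, rose from 45.1, 84.0, 61.9 and 77.5 in Con-Veh to 449, 321, 256 and 357 in Con-DHT. The groups were far apart, with a log2 fold change of 2.36 ± 0.22 (SE, limma, adjusted p = 0.00031), and the call held in all 8 leave-one-out fits. C7, which lies near C6 on chromosome 15 with 1 protein-coding gene between them, was low in both groups, at 15.4 to 23.2 in Con-Veh and 17.4 to 27.2 in Con-DHT (limma, adjusted p = 0.72).

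The 2 that fell encode complement receptors of macrophages and other leukocytes. Vsig4, a receptor for C3 fragments on Kupffer cells that also stands in the macrophage marker list, was 465, 479, 437 and 473 in Con-Veh and 389, 288, 287 and 295 in Con-DHT. Itgb2, the shared beta chain of complement receptors 3 and 4, was 177, 176, 181 and 169.7 in Con-Veh and 130.5, 110.3, 120.4 and 95.7 in Con-DHT. Neither gene's groups overlapped, and the log2 fold changes were -0.57 and -0.63 (limma, adjusted p = 0.012 and 0.011). Both calls were lost under ERCC scaling (log2 fold changes -0.37 and -0.43, limma, adjusted p = 0.87 and 0.83). The alpha chains that pair with the Itgb2 product, Itgam and Itgax, were between 2.99 and 23.5 in all 8 livers and did not pass (limma, adjusted p = 0.92 and 0.82). Groups did not overlap in 7 of the 23 genes, against 15.1% of all tested genes, and 21 of 23 estimates were below 0 with a median log2 fold change of -0.25 (-0.0081 over all tested genes), although 8 of the 23 signs flipped under ERCC scaling.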

How the data were processed

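Liver RNA-seq libraries of 8 female mice, 4 Con-Veh and 4 Con-DHT, were used, grouped by the treatment in the labels. Per the submitters' processing notes and the methods, the authors trimmed reads (Trimmomatic), aligned them (STAR; the labels name GRCm39), counted unique exonic reads (featureCounts of Subread) and normalized with DESeq2. The deposited values are a normalized signal, counts divided by 1 size factor per library; strandedness is not given in the sources used here. Dividing each column by its step returned whole reads for 100% of values (tolerance 0.01), and the smallest sum of a feature over the libraries was 81 reads.

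The main test was limma 3.58.1 (lmFit, eBayes with trend) in R 4.3.3 on log2(value + 1), which shrinks the fold changes of low genes, for the 14312 genes with a mean of at least 10, with no covariate and an adjusted p of at most 0.05. edgeR 4.0.16 (quasi-likelihood) and DESeq2 1.42.0 (Wald) ran on the recovered reads as alternatives, beside other scalings and left-out libraries. The scripts were tested on simulated data. Single ratios were compared by exact permutation (scipy 1.17.1). Levels per kilobase and the recurring 150-base windows used GENCODE M21 exons; promoters came from RefSeq, with 25 of 35 members matched. The members and gene lists were chosen with earlier results of these data known. All members are accounted for, and those that passed, or whose groups did not overlap with an unadjusted p of at most 0.05, are given in every library; other genes given in full were chosen after their values were seen. Replicate numbers did not pair the samples (same-number correlations -0.19 to -0.0060). Some items of the study are not reported here.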

Additional observations from a re-analysis of the deposited data

Results flagged for a closer look

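Dixon's test at the 95% level was applied to each group of 4 livers. It covered the members, Susd4, Itgb2, Vsig4, the C4a share, the ratio of C1q to macrophage markers and the summed cell type markers. Of 94 groups in all, 4 stood out, a number below the 1 in 20 that chance gives. C2 was 1270.1 in Con-Veh 2 and 902.5 to 908 in the other Con-Veh livers. C3 was 181357 in Con-DHT 3 and 121804 to 123751 in the other Con-DHT livers. Vtn was 38745 in Con-DHT 3 and 31606 to 32591 in the others. Vsig4 was 389 in Con-DHT 1 and 287 to 295 in the others.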

How the results depend on the processing

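The 8 member calls were the same genes with either other pseudocount, without the filter, with a minimum mean of 50, with equal upper quartiles, quantile normalization, array weights and edgeR. Without the trend 6 were called (Cfb and C8b lost), and with an equal total without the Mup genes 7 (C1qc lost). The ERCC scaling called 3 members, 637 of all genes and 1 further complement gene. Spike-ins were 1.68% to 3.61% of reads in Con-Veh and 2.22% to 2.75% in Con-DHT. A mean of at least 50 gave 648 of all genes, where fewer genes were tested, and DESeq2 gave 1569 of all genes and 6 further genes. Leaving out 1 library gave 638 to 897 of all genes, 5 to 8 members and 3 to 4 further genes, and C4a share differences of 0.106 to 0.234 percentage points. The alternatives that left out a pair of libraries were added after seeing the data. They gave 509 of all genes and 1 further gene without Con-Veh 1 and 2, 517 and 5 without Con-Veh 3 and 4, and 474 and 1, with 2 members, without Con-DHT 3 and 4. Where not stated, the cause was not tested.

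With a replicate block, 6 members and 700 of all genes were called, C1qc (limma, adjusted p = 0.053) and Cfb (0.059) were lost, and the exact paired permutation p of the C4a share was 0.25. The numbers are only names here, since same-number correlations were below 0.

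None of the estimates that changed sign belonged to a called member. Log2 fold changes with the sign turned were, under ERCC scaling, C1rl 0.11, Masp1 0.020, Masp2 0.13, Colec10 0.11, Colec11 0.028, C2 0.072, C4a 0.027, C4bp 0.20, Cd59a 0.0080 and C3ar1 0.11. With an equal total without the Mup genes they were C1rl 0.012, Masp2 0.027, Colec10 0.015, C4bp 0.098 and C3ar1 0.012. C4bp was 0.0035 with equal upper quartiles, 0.018 with quantile normalization and 0.027 with array weights. Without Con-Veh 1 and 2 they were C1rl 0.019, C4a 0.46, Hc 0.11, C4bp 0.25 and Cd55 -0.083. Without Con-Veh 3 and 4 they were Mbl1 -0.14, Colec10 0.44, Colec11 0.50 and C9 -0.12. Without Con-DHT 3 and 4 they were Masp2 0.029, Colec10 0.096, C4a 0.13, Cfd -0.49, C4bp 0.030 and C5ar1 -0.11. Over the fits without 1 library the ranges crossed 0 for Colec10 (-0.37 to 0.16), Colec11 (-0.42 to 0.084), C4a (-0.50 to 0.057), C4bp (-0.12 to 0.11), Cd55 (-0.091 to 0.17) and C3ar1 (-0.23 to 0.097). With 4 mice a group, genes with few reads, such as C5ar1, were measured too coarsely to show small differences.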
